A study of Mus musculus with 3 samples.

Results

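This account describes 10 mouse genes of NF-kB signalling and inflammatory cell death, measured by RNA sequencing in blood stem and progenitor cells that did or did not carry a transgene for DNMT3B7. The genes were chosen by their symbols: Rela, Nfkbiz, Map3k8, Map3k11, Birc2, Birc3, Casp1, Casp4, Litaf and Tnfsf13b. Each was listed once, with an estimate marked OK in all 3 libraries, so all 10 of the 10 genes were measured, out of 38205 gene identifiers in each table. The cells were LSK cells, sorted as negative for lineage markers and positive for Sca1 and c-Kit, from fetal livers of C57Bl/6 embryos at E14.5. Embryos were homozygous for DNMT3B7, hemizygous for DNMT3B7 or wild type (WT). DNMT3B7 is a shortened variant of DNMT3B, an enzyme that methylates DNA. The cells of 4 to 5 embryos were pooled into the 1 library of a genotype. The sources used here do not give the promoter that drives the transgene or the number of transgenic lines.

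With 1 library for each genotype there was no replicate and no test, no p-value is given, and every difference below is a difference between libraries. In such bulk samples, fewer cells of a type and less RNA per cell cannot be told apart.

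NF-kB is a family of dimeric transcription factors that is held inactive in resting cells by IkB proteins and is released by kinases acting below receptors for tumour necrosis factor (TNF), interleukin 1 and bacterial products. The cellular inhibitors of apoptosis (cIAPs) are ubiquitin ligases that pass the TNF receptor signal to NF-kB and hold back cell death. Inflammatory caspases are proteases that mature interleukin 1 family cytokines and open the cell membrane in pyroptosis. In blood stem cells, inflammatory signalling is known to influence emergence in the embryo and self-renewal.

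The values used are deposited FPKM, in which fragments are counted per transcript length and per depth of the library. All were divided by 4245.16, and the quotient is called value below. Usable values were found in 10 chromosome segments that began at a chromosome start, and all 10 genes lay in them: Rela and Map3k11 on chromosome 19, Nfkbiz and Litaf on chromosome 16, Map3k8 on chromosome 18, Tnfsf13b on chromosome 8, and Casp1, Casp4, Birc2 and Birc3 on chromosome 9. Among the protein-coding genes used to find these limits, 28.6% to 59.0% averaged 200000 or more deposited FPKM before the limit of a segment, against 0% to 5.09% after it. Birc3 was itself the last gene of the chromosome 9 segment, so its own high value helped to set that limit. The 10 genes and the limits were chosen with earlier results of these data known, so the place of the genes in the segments is not a result.

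Comparisons were read against 1452 genes of these segments and the mitochondrial genome, and 970 of them came to a value of 1 or more in some library. The low values implied about 2305110 fragments in the homozygous, 3010850 in the hemizygous and 3017070 in the WT library where each gene was given its median transcript length. With the longest transcript they implied 4799750 in the homozygous, 5936810 in the hemizygous and 5674800 in the WT library. The sort could not be checked on its own genes, because none of the 7 gate markers lay in a segment, and Ly6a, which encodes Sca1, was listed at 0 in all 3 libraries.

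DNMT3B methylates cytosines in CG dinucleotides, so the CG content of the promoters is shown beside the levels. The caspase and cIAP promoters are printed because these are the neighbouring paralogs that the results below set against each other. RefSeq windows of 300 bases, from 250 before to 50 after an annotated start on build GRCm38.p6, were held for 8 of the 10 genes (11 windows), with Nfkbiz and Map3k8 not among them. Bases are written 5′ to 3′ along the gene, and capitals mark CG.
Birc2: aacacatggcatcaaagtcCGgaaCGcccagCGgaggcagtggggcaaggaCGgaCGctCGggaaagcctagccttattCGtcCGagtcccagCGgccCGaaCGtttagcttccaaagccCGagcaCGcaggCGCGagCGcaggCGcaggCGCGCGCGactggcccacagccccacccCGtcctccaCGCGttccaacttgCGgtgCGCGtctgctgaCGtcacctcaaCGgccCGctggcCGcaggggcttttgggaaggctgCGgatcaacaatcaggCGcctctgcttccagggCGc
Birc3: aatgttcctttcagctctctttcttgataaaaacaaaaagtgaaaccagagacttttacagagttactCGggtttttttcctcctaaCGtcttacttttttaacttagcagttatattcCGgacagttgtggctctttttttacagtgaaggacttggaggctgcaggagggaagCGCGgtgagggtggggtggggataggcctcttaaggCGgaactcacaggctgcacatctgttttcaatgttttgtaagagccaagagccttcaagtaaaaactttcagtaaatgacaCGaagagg
Casp1: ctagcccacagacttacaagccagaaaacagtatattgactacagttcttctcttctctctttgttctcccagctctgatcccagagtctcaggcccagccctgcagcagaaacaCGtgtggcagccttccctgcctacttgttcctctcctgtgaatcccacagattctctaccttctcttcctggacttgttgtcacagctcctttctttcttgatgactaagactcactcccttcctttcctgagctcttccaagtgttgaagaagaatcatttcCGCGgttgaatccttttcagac
Casp4: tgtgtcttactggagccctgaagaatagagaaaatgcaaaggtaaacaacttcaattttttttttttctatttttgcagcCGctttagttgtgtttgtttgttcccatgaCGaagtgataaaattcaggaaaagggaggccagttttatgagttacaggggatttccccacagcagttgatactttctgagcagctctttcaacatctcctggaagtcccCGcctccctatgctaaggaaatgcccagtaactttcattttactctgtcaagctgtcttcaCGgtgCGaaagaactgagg
The Birc2 window shown, chr9:7837008-7837307 on the minus strand, held 34 CG dinucleotides, and a second, overlapping Birc2 window held 21. The Birc3 window, chr9:7873121-7873420 on the minus strand, held 7. The Casp1 window, chr9:5298267-5298566 on the plus strand, held 3, and the Casp4 window, chr9:5308599-5308898 on the plus strand, held 5. The median over all 32851 windows in the table was 7, with quartiles at 3 and 20. Of the other genes, Rela had 31, Litaf 24, Map3k11 15, and Tnfsf13b 6 in each of its windows. Methylation was not measured in these samples.

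The kappaB consensus, the sequence class bound by NF-kB dimers, was searched on both strands and matched 8.46% of all 32851 windows. Of the 11 windows of the 8 genes, the 2 overlapping windows of Casp4 held it, and the other 9 did not. In the Casp4 window shown, the matching bases were ggggatttcc, starting 93 bases before the annotated start, an overlapping match 1 base on, and ggaagtcccc, starting 39 bases before it. A match of letters is a description and not a binding site.

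The order of levels was much the same in the 3 libraries, apart from neighbours such as Map3k8 and Nfkbiz that changed places. Rela, the p65 subunit that carries the transactivation domain of NF-kB, was the highest of the 10 genes, and Tnfsf13b the lowest. In rank among the 970 genes, Rela stood at 217 in the homozygous, 210 in the hemizygous and 208 in the WT library, and Tnfsf13b at 886, 928 and 869. The 95% counting intervals of Rela and Map3k11 overlapped in every library, as did those of Map3k8 and Nfkbiz. Those of Birc2, Casp1 and Casp4, in this descending order, did not overlap in any of them. These intervals were computed from estimated fragments and cover counting error only.

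**Figure D1:**
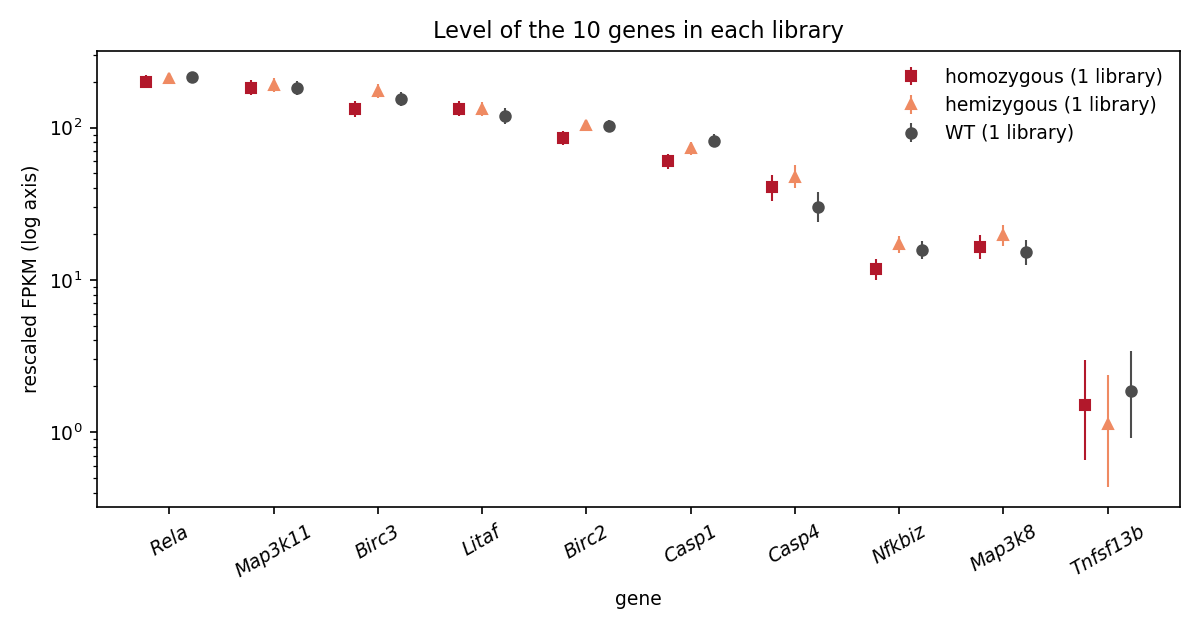
Value (rescaled FPKM, log axis) of the 10 genes in the homozygous, hemizygous and WT library, with 1 library each. Bars are 95% counting intervals from estimated fragments. The genes run from about 200 for Rela, at 201, 211 and 214, down to between 1 and 2 for Tnfsf13b, and the 3 libraries lie close together for most of them.

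Among the transcription factor genes, Rela (ENSMUSG00000024927) had values of 201 in the homozygous, 211 in the hemizygous and 214 in the WT library. Its counting intervals overlapped in all 3 on this scale. Under sum scaling, with the libraries scaled to the same sum, the log2 ratio of Rela was 0.46 (0.28 to 0.65) for homozygous versus WT. It was 0.28 (0.10 to 0.46) for homozygous versus hemizygous under that scaling. Nfkbiz (ENSMUSG00000035356) encodes IkB-zeta, a nuclear IkB protein that acts on selected NF-kB targets, and had values of 11.8 in the homozygous, 17.1 in the hemizygous and 15.7 in the WT library. The homozygous library was the lowest of the 3. For homozygous versus WT, Nfkbiz had a ratio of value + 1 of -0.38 ± 0.15 (log2, counting SE), which turned to 0.14 when the libraries were scaled to the same sum. It was -0.50 ± 0.15 for homozygous versus hemizygous, or -0.17 under that scaling. For hemizygous versus WT it was 0.11 ± 0.13.

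The 2 kinase genes of the set were at different levels. Map3k11 (ENSMUSG00000004054) encodes MLK3, a kinase that activates the JNK pathway, and had values of 183 in the homozygous, 191 in the hemizygous and 183 in the WT library. Its counting intervals overlapped in all 3 on this scale. Under sum scaling Map3k11 came to a log2 ratio of 0.56 (0.34 to 0.78) for homozygous versus WT and 0.29 (0.08 to 0.51) for homozygous versus hemizygous. Of its 50-base transcript stretches, 8.43% also occur in other annotated genes, chiefly an antisense gene, and its exons overlap Pcnx3 on the opposite strand. The sources used here do not state the strand setting, and without strand the reads of overlapping genes cannot be separated. Map3k8 (ENSMUSG00000024235) encodes TPL2, a kinase that activates ERK below TNF and Toll-like receptors, and had values of 16.5 in the homozygous, 19.7 in the hemizygous and 15.3 in the WT library. The hemizygous library was the highest, with a log2 ratio of 0.34 for hemizygous versus WT and a 95% counting interval of -0.005 to 0.69, which just included 0. Whether this interval included 0 depended on the setting. It was 0.01 to 0.71 with a pseudocount of 0.1, 0.04 to 0.65 with the longest transcript and -0.07 to 0.63 with a pseudocount of 5. For homozygous versus hemizygous the log2 ratio of Map3k8 was -0.24, which turned to 0.095 under sum scaling.

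The cIAP genes, next to each other on chromosome 9, were both lowest in the homozygous library on this scale, a direction that turned against WT under sum scaling, to 0.29 for Birc2 and 0.34 for Birc3 (log2). Birc2 (ENSMUSG00000057367), which encodes cIAP1, had values of 85.4 in the homozygous, 103 in the hemizygous and 103 in the WT library. Birc3 (ENSMUSG00000032000), which encodes cIAP2 and is itself a known NF-kB target, had 133 in the homozygous, 174 in the hemizygous and 154 in the WT library. For Birc2 the hemizygous and WT values were alike, and for Birc3 the hemizygous value was the highest. For homozygous versus hemizygous the log2 ratio was -0.27 ± 0.10 (counting error) for Birc2 and -0.39 ± 0.11 for Birc3. Under sum scaling these came to 0.08 for Birc2 and -0.04 for Birc3, both with intervals that included 0. For homozygous versus WT it was -0.27 ± 0.10 for Birc2 and -0.21 ± 0.12 for Birc3, the last with an interval of -0.44 to 0.02. The paralogs share little sequence of this length: 1.49% of the 50-base stretches of Birc2 occur in other genes, chiefly Birc3. For Birc3 the share was 7.56%, chiefly with Gm7019.

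The inflammatory caspase genes, also neighbours on chromosome 9, stood on opposite sides of WT in the transgenic libraries, Casp1 below and Casp4 above, although under sum scaling Casp1 came to 0.11 for homozygous versus WT and 0.04 for hemizygous versus WT (log2). Casp1 (ENSMUSG00000025888) encodes the inflammasome protease that matures interleukin 1 beta and interleukin 18, and had values of 60.2 in the homozygous, 73.0 in the hemizygous and 82.0 in the WT library. Casp4 (ENSMUSG00000033538) encodes the mouse protease also known as caspase-11, which responds to bacterial lipopolysaccharide inside cells, and had 40.5 in the homozygous, 47.7 in the hemizygous and 30.2 in the WT library. Casp1 was thus lowest in the homozygous library and Casp4 was lowest in the WT library. Casp1 had a log2 ratio of -0.44 ± 0.11 (counting error) for homozygous versus WT. For hemizygous versus WT it was -0.17 ± 0.10, with an interval of -0.36 to 0.03. That of Casp4 was 0.41 ± 0.21 for homozygous versus WT, with an interval of -0.005 to 0.83, and 0.64 ± 0.20 for hemizygous versus WT, with an interval of 0.25 to 1.04. The Casp4 interval for homozygous versus WT was 0.006 to 0.84 with a pseudocount of 0.1 and -0.05 to 0.79 with a pseudocount of 5. Casp1 has a single annotated transcript and shares 0% of its 50-base stretches with other genes, against 0.24% for Casp4. At the median transcript length the Casp1 value rests on an estimated 300 fragments in the homozygous, 403 in the hemizygous and 428 in the WT library. That of Casp4 rests on 104, 136 and 81.6 in the same order. At the longest transcript the Casp4 fragments came to 265, 345 and 207, and those of Casp1 were unchanged.

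**Figure D2:**
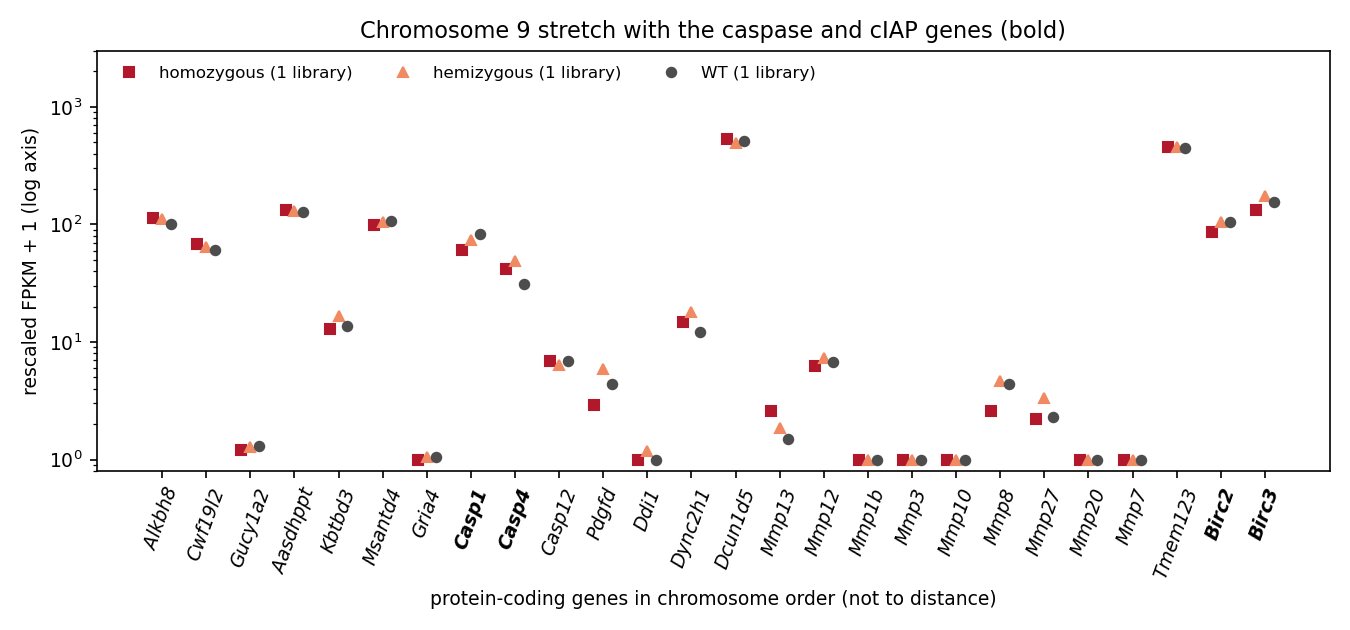
Value + 1 (rescaled FPKM, log axis) of protein-coding genes in chromosome order along the chromosome 9 segment, from its gene 10, Alkbh8, to its last, Birc3, in the 3 libraries. High genes such as Dcun1d5 and Tmem123 stand beside genes at or near 0 such as Mmp3 and Mmp7, and the transgenic libraries lie below WT for Casp1 and above it for Casp4 on this scale, which under sum scaling puts Casp1 above WT too.

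Litaf (ENSMUSG00000022500) encodes an endosomal membrane protein induced by lipopolysaccharide, and had values of 133 in the homozygous, 132 in the hemizygous and 119.6 in the WT library. The transgenic libraries were level with each other and slightly above WT, with log2 ratios of 0.16 ± 0.12 (counting error) for homozygous versus WT and 0.15 ± 0.12 for hemizygous versus WT. This holds on this scale: under sum scaling Litaf came to 0.71 for homozygous versus WT, past 1.5-fold, and to 0.36 (0.13 to 0.59) for homozygous versus hemizygous. Its exons overlap those of Snn on the opposite strand. Tnfsf13b (ENSMUSG00000031497) encodes BAFF, a ligand that keeps B cells alive, and had values of 1.51 in the homozygous, 1.13 in the hemizygous and 1.87 in the WT library. These rest on an estimated 8.01, 6.61 and 10.4 fragments at the median transcript length, so a difference was not detectable at this depth. For homozygous versus WT the log2 ratio was -0.19, with an interval of -1.52 to 1.14.

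Homozygous and WT cells differ in carrying the transgene on both chromosomes or not at all. For homozygous versus WT, none of the 10 genes was past 2-fold on the scale of value + 1, against 4.4% of the 955 genes compared, and none was past 1.5-fold, against 12.5%. The counting interval lay wholly below 0 for 3 genes (Nfkbiz, Birc2 and Casp1), wholly above 0 for none, and included 0 for 7, against 18.3% below and 12.8% above of the 942 genes with an interval. Under sum scaling it lay wholly below 0 for none and wholly above 0 for 7 (Rela, Map3k8, Map3k11, Birc2, Birc3, Casp4 and Litaf). Of all 957 genes compared under that scaling, 8.78% had a ratio below 0. Under scaling to the sum of the nuclear genes the interval lay wholly below 0 for 2 (Nfkbiz and Casp1) and wholly above 0 for 1 (Casp4). Of all 955 genes compared under that scaling, 46.1% had a ratio below 0. Shares of intervals over all genes were not computed under either scaling. Without such scaling the ratio was below 0 for 6 of the 10, against 56.2% of all genes compared. The median log2 ratio of the 10 was -0.14, against -0.045 over all genes, and they ranged between -0.44 for Casp1 and 0.41 for Casp4. Sum scaling brings the compared genes of each library, the mitochondrial mRNAs included, to the same sum. The mitochondrial mRNAs made up 64.9% of this sum in the homozygous, 72.1% in the hemizygous and 74.95% in the WT library. Sum scaling raised the median of all genes by 0.53 and put all 10 ratios above 0. Relative to the median of all genes, the ratio of Casp1 was -0.39 without and -0.38 with sum scaling, and that of Casp4 was 0.46 without and 0.47 with it.

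Hemizygous cells carry the transgene on a single chromosome. For hemizygous versus WT, none of the 10 genes was past 2-fold, against 2.73% of the 954 genes compared. Casp4 was the 1 gene past 1.5-fold, in the higher direction, against 7.97% of all genes in either direction and 4.82% in the higher one, so 1 of 10 is close to the share of all genes. On this scale its counting interval was also the 1 among the 10 wholly above 0, and none was wholly below, against 15.6% above and 14.1% below of the 943 genes with an interval. Under sum scaling the interval was wholly above 0 for 8 of the 10 genes, and under scaling to the sum of the nuclear genes for 3 (Map3k8, Birc3 and Casp4). Of all genes compared, 17.5% had a ratio below 0 under sum scaling, with a median of 0.22, and 37.8% under the nuclear scaling. Shares of intervals over all genes were not computed under either scaling. Without such scaling the ratio was above 0 for 7 of the 10, against 54.1% of all genes, and the median was 0.088, against 0.022 over all genes. With a pseudocount of 5 the log2 ratio of Casp4 was 0.581, just short of 1.5-fold, which is 0.585.

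Homozygous and hemizygous cells both carry the transgene and differ in its dose. For homozygous versus hemizygous, none of the 10 genes was past 2-fold, against 4.57% of the 962 genes compared, and none was past 1.5-fold, against 11.4%. The counting interval lay wholly below 0 for 4 genes (Nfkbiz, Birc2, Birc3 and Casp1) and above it for none, against 18.5% below and 8.35% above of the 946 genes with an interval. Under sum scaling all 4 intervals included 0, and those of Rela, Map3k11 and Litaf lay wholly above it. Of all 969 genes compared under that scaling, 20.2% had a ratio below 0, and the share of intervals was not computed. Under median-ratio scaling the interval of Casp1 included 0, at -0.42 to 0.008. The ratio was below 0 for 8 of the 10, against 60.9% of all genes, with a median of -0.24 against -0.055. Litaf, at 0.01, and Tnfsf13b, at 0.24 with an interval of -1.24 to 1.73, were above 0. The 3 comparisons share libraries, so their ratios are not independent of each other. Under sum scaling, 8 of the 10 ratios were above 0 and the median of all genes rose by 0.35, and 7 of the 10 lay below that median.

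**Figure D3:**
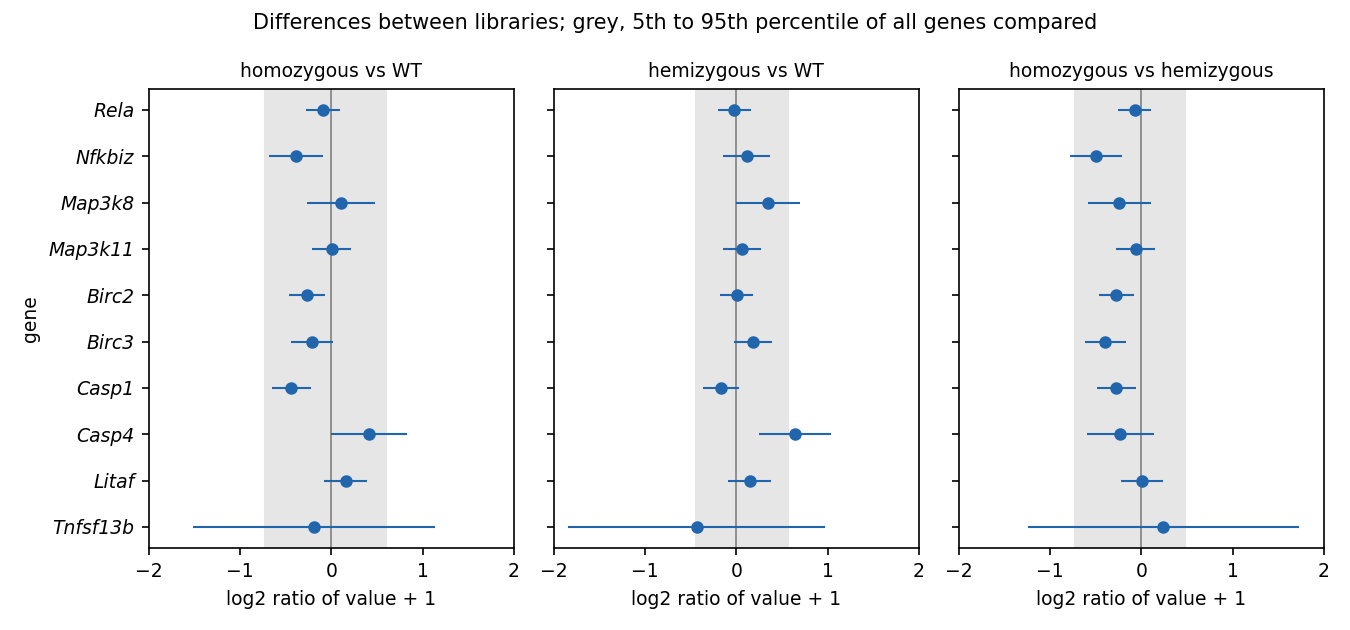
Log2 ratio of value + 1 of the 10 genes in the 3 comparisons, with 95% counting intervals. The grey band runs from the 5th to the 95th percentile of all genes compared, from -0.72 to 0.59 for homozygous versus WT, and all points lie inside it except Casp4 for hemizygous versus WT, at 0.64 against an upper limit of 0.57.

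Ratios between 2 genes within a library do not depend on how the libraries are scaled to each other. The pairs were chosen after the values were seen. The ratio of Casp4 to Casp1 was 0.673 in the homozygous library (95% counting interval 0.539 to 0.841), 0.653 in the hemizygous library (0.538 to 0.793) and 0.368 in the WT library (0.291 to 0.467). The interval of the WT library overlapped neither of the others. The log2 difference was 0.87 (0.40 to 1.34) for homozygous versus WT and 0.83 (0.38 to 1.27) for hemizygous versus WT, and 0.04 (-0.38 to 0.47) between the transgenic libraries. As a background, 660 pairs of next-door protein-coding genes were taken, each gene above 0 in every library and 5 or higher in some library. Their ratio moved 1.5-fold or more in 13.3% for homozygous versus WT, 9.24% for hemizygous versus WT and 11.7% for homozygous versus hemizygous. Of the 4 pairs described here, 1 moved that far for homozygous versus WT, 1 for hemizygous versus WT and 0 for homozygous versus hemizygous. Each time it was Casp4 to Casp1, and both differences rest on the same WT library, so they are not independent of each other. The background pairs were not chosen by their values, so the 2 kinds of share are not alike. The share of background pairs with intervals that did not overlap was not computed. The ratio of Birc3 to Birc2 was 1.55 in the homozygous, 1.69 in the hemizygous and 1.49 in the WT library, and its counting intervals overlapped in all 3. The ratio of Map3k8 to Map3k11 was 0.0900 in the homozygous, 0.103 in the hemizygous and 0.0835 in the WT library, again with overlapping intervals. The ratio of Nfkbiz to Rela was 0.0589 in the homozygous, 0.0809 in the hemizygous and 0.0734 in the WT library, with a log2 difference of -0.46 (-0.80 to -0.12) for homozygous versus hemizygous and -0.32 (-0.67 to 0.03) for homozygous versus WT.

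**Figure D4:**
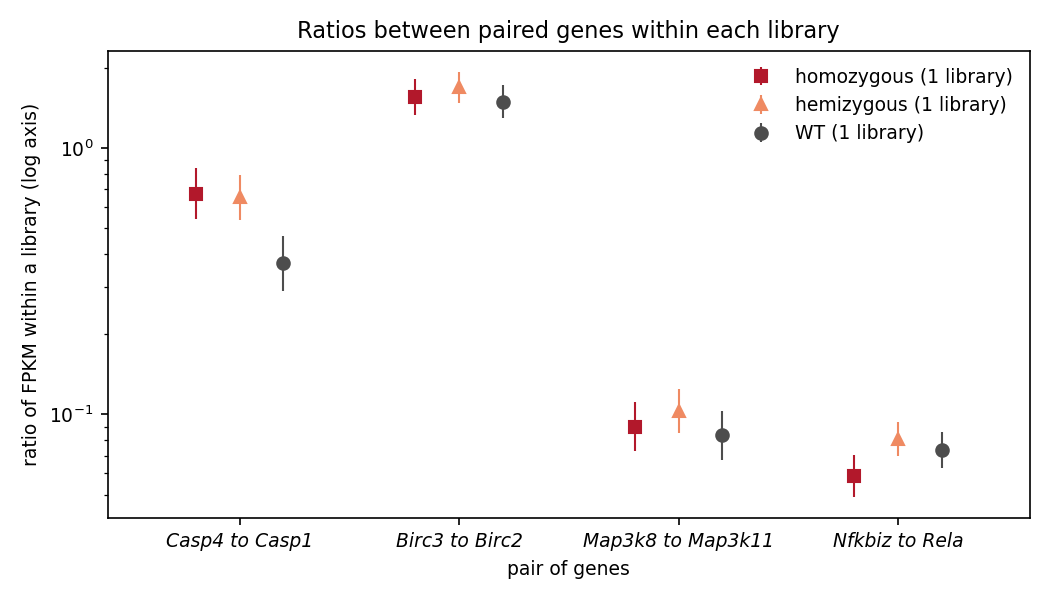
Ratio of FPKM between paired genes within each library (log axis), with 95% counting intervals. For Casp4 to Casp1 the homozygous and hemizygous libraries stand at 0.673 and 0.653, above the WT library at 0.368, and for the other pairs the libraries lie closer together.

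The rest of the pathway was thinly covered. Of 124 genes in the NF-kB, inflammasome and cell death lists, 14 lay in the segments, of which 10 are the genes above. Of the other 4, 3 were measured in each comparison, and none of them was past 1.5-fold in either direction in any comparison. Il1rap, a subunit of the interleukin 1 receptor, had values of 21.8 in the homozygous, 20.4 in the hemizygous and 19.5 in the WT library. Casp12, next to Casp4, had 5.94 in the homozygous, 5.38 in the hemizygous and 5.83 in the WT library. Mefv, which encodes the inflammasome sensor pyrin, had 2.89 in the homozygous, 4.37 in the hemizygous and 4.23 in the WT library, at -0.43 ± 0.35 (log2 ratio, counting error) for homozygous versus WT. Tnfrsf17, a receptor for BAFF, stayed below 1 in all 3 libraries. By list, 1 of 5 NF-kB subunits, 1 of 7 IkB proteins, 2 of 20 kinases, 3 of 21 adaptors and ubiquitin enzymes, 2 of 18 receptors, 1 of 12 ligands, 4 of 17 inflammasome genes, 2 of 16 apoptosis genes and 1 of 19 NF-kB targets lay in the segments. The lists overlap: Birc2 and Birc3 are among the adaptors and are also the 2 apoptosis genes, and Birc3 is the NF-kB target.

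The few markers of other cell types that lay in the segments also differed between the libraries, and their part in the differences above was not tested. The marker values were not recomputed under sum scaling. That scaling raised the median of all genes by 0.53 for homozygous versus WT, and the order of libraries below is given on this scale. Smaller differences for homozygous versus WT, such as those of Car2 and Tfrc (-0.30 and -0.34, log2), could turn under it. Those of the B lymphoid markers Igll1, Vpreb1 and Vpreb2, at -1.30, -1.59 and -1.41, were larger than this shift. A sort for lineage-negative cells is meant to remove mature cells of several of these types. The B lymphoid list had 3 of 8 markers in the segments (Igll1, Vpreb1 and Vpreb2), and their summed value was 192 in the homozygous, 400.4 in the hemizygous and 517 in the WT library. The vessel wall list had 2 of 6 (Col4a1 and Col4a2), with a sum of 99.3 in the homozygous, 68.1 in the hemizygous and 52.6 in the WT library. The neutrophil list had 1 of 9, Mmp8, at 1.61 in the homozygous, 3.64 in the hemizygous and 3.41 in the WT library. Its log2 ratio was -0.76 ± 0.47 (counting error) for homozygous versus WT. The erythroid list had 4 of 10, with a sum of 3285 in the homozygous, 4012 in the hemizygous and 3986 in the WT library. Car2 and Tfrc made up most of it, and Car1 went the other way, at 76.7 in the homozygous, 65.0 in the hemizygous and 64.7 in the WT library. The megakaryocyte list had 2 of 6, with a sum of 34.9 in the homozygous, 20.8 in the hemizygous and 22.0 in the WT library. Most of it was Gp5, at 30.1 in the homozygous, 17.7 in the hemizygous and 16.5 in the WT library, which Gp1bb did not follow, at 4.76 in the homozygous, 3.09 in the hemizygous and 5.50 in the WT library. The hepatocyte list had 1 of 6, Ahsg, at 3.67 in the homozygous, 3.49 in the hemizygous and 3.70 in the WT library. None of the 10 macrophage and monocyte markers lay in a segment, so that cell type could not be looked at.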

How the data were processed

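Total RNA of sorted LSK cells was sequenced in 3 libraries, 1 for each genotype, grouped by the genotype label. The deposited tables hold FPKM and a status flag for every gene, per the file headers. The submitters' processing notes name TopHat2, Bowtie2, Cufflinks and mm9 and give no version. The sources used here do not give the annotation, strand setting or filters.

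With small RNA genes left out, the tables summed to between 3583690000 and 4829750000, far above what FPKM usually sum to, so every library was divided by 4245.16, which brings the mean sum to that of a per-million unit. Genes that every cell uses were listed at or near 0 on much of the genome. For each chromosome the position was sought, by likelihood, where the share of protein-coding genes averaging 200000 or more deposited FPKM dropped. Gene families and constitutive genes stayed out of that step, and a break was kept when the log likelihood rose by at least 5 and the share before it was at least 0.25. Genes before the breaks and mitochondrial genes were compared. The members, the gene lists, the breaks and the named genes (all members, and list genes in the segments) were chosen with earlier results of these data known.

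Low values stepped in whole fragments within 0.05 for 62.3% of 959 values in the homozygous, 59.9% of 1089 in the hemizygous and 62.6% of 947 in the WT library, with a fragment length of 200 bases assumed. Estimated fragments gave the counting SE and 95% intervals, exact Poisson for a value and normal for a log2 ratio. The SE of a log2 ratio is that of the plain ratio, and its interval is centred on the ratio of value + 1. Fragments depend on the transcript length taken. A ratio has an interval where the gene is above 0 in both libraries. Genes with an OK flag in both libraries of a comparison, and a value of 1 or more in either, were compared by the log2 ratio with a pseudocount of 1, which understates the differences of low genes. Sizes of 2-fold and 1.5-fold were counted. Alternatives were the pseudocount, the scaling between libraries, the minimum value, the rows per gene, the transcript length and the break threshold. GENCODE release M21 (GRCm38) gave transcript lengths, gene order and overlaps, and no coordinates of it are set on the mm9 files. Steps were tested on simulated data and run with Python 3.11.15, pandas 2.3.3 and numpy 2.4.6.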

Additional observations from a re-analysis of the deposited data

How the results depend on the processing

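No gene of the 10 passed 2-fold in any of the 3 comparisons under any setting run. With a pseudocount of 0.1 the count past 1.5-fold for hemizygous versus WT was 2 (Casp4 and Tnfsf13b), and with a pseudocount of 5 it was 0. Under sum scaling 3 genes (Map3k8, Casp4 and Litaf) passed 1.5-fold for homozygous versus WT, and the median of the 10 was 0.40 for homozygous versus WT, 0.29 for hemizygous versus WT and 0.11 for homozygous versus hemizygous. The median for homozygous versus WT was -0.085 with a pseudocount of 5 and -0.081 under nuclear sum scaling, and that for homozygous versus hemizygous was -0.17 under median-ratio scaling. Sum scaling changed the sign of 14 of the 30 ratios of the 10 genes, nuclear sum scaling of 1 and median-ratio scaling of 2, and the pseudocounts, minimum values, rows per gene and break thresholds of none. The 2-fold calls over all genes were 60 higher and 9 lower under sum scaling (20 and 22 without it) for homozygous versus WT, 21 and 6 (17 and 9) for hemizygous versus WT, and 33 and 15 (16 and 28) for homozygous versus hemizygous. In these 3 comparisons in order, the calls over all genes were 60, 43 and 74 with a pseudocount of 0.1, 10, 4 and 9 with a pseudocount of 5, and 22, 8 and 19 with a minimum of 5, against 42, 26 and 44. A minimum of 5 left out Tnfsf13b, and a break threshold of 300000, chosen like that of 100000 after seeing the data, left out Nfkbiz. With the longest transcript the interval of Casp4 for homozygous versus WT was 0.15 to 0.68, and intervals lay wholly above or below 0 for 2 and 5 genes for homozygous versus WT, 4 and 0 for hemizygous versus WT, and 0 and 4 for homozygous versus hemizygous. With a pseudocount of 0.1 they lay above or below 0 for 1 and 3, 2 and 0, and 0 and 4 genes in the same order, and under median-ratio scaling for 1 and 3, 1 and 0, and 0 and 3. Shares of intervals over all genes were not computed under these settings, so these counts cannot be set against them. Depth limits Tnfsf13b most. No paired analysis was possible because each genotype has 1 library.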
